A study of Mus musculus with 20 samples.

Results

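The podocyte genes Nphs1, Podxl, Synpo, Wt1 and Ptpro were followed in mRNA-seq libraries of kidney and liver. These 5 genes were chosen by name as markers of the podocyte, the filtering epithelial cell of the glomerulus, and each symbol was matched to its Ensembl identifier among the 57010 genes counted. All 20 libraries came from male UM-HET3 mice, a genetically mixed stock in which each animal has its own genotype, aged 12 months at the start of treatment. The treated animals received 7c, a mixture of repsox, tranylcypromine, DZNep, CHIR99021, forskolin and TTNPB, each at 0.1 mg/kg/day, and valproate at 1 mg/kg/day. Control animals received the vehicle alone, equal volumes of DMSO and PEG300, and every animal was dosed for 28 days from an osmotic minipump under the skin. The groups were 6 kidneys and 6 livers of 7c-treated mice and 4 kidneys and 4 livers of vehicle-treated mice, given as biological replicates. Both tissues were sequenced as bulk tissue, so fewer podocytes and less RNA per podocyte cannot be told apart. Libraries held 33003173 to 64872451 counts in the 7c kidneys, 27855849 to 39651123 in the vehicle kidneys, 28383359 to 30571119 in the 7c livers and 31670440 to 34153084 in the vehicle livers.

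Podocytes wrap the glomerular capillaries with interlocking foot processes. Neighbouring foot processes are bridged by the slit diaphragm, a cell junction that forms part of the barrier between blood and urine, and the shape of the foot process depends on its actin skeleton and on a strongly charged surface coat. Loss of these features goes with protein leakage into urine. Of the genes described here, Nphs1 encodes nephrin, the main structural protein of the slit diaphragm. Podxl encodes podocalyxin, the sialylated protein that coats the urinary face of the podocyte and is also found on vascular endothelium. Synpo encodes synaptopodin, an actin-associated protein of foot processes and of dendritic spines. Wt1 encodes a zinc finger transcription factor that podocytes keep into adult life and that is also found in mesothelium. Ptpro encodes a receptor-type tyrosine phosphatase on the apical surface of foot processes, also known as GLEPP1.

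On the GRCm39 assembly, Nphs1 (ENSMUSG00000006649) lies on the plus strand of chromosome 7 from 30157740 to 30186675, and its canonical transcript has 30 exons. Podxl (ENSMUSG00000025608) lies on the minus strand of chromosome 6 from 31496418 to 31540924, with 8 exons. Ptpro (ENSMUSG00000030223) lies on the plus strand of the same chromosome from 137229276 to 137440263, with 27 exons. Wt1 (ENSMUSG00000016458) lies on the plus strand of chromosome 2 from 104956625 to 105003961, with 10 exons. Synpo (ENSMUSG00000043079) has 3 exons. The start of Wt1 overlaps the antisense transcript Wt1os, which held 5 to 75 counts per kidney and 0 to 14 per liver. Nphs1 overlaps Nphs1os, at 0 counts in all libraries, and the pseudogene Rps12-ps4, at 8 to 29 counts per kidney. Ptpro overlaps Gm44258, which held 0 to 4 counts per kidney. The strand setting used in counting was not given in the sources used here, so reads from such overlaps could not be assigned beyond the deposited counts.

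The 250 bases before the canonical start site are shown for Nphs1, which had no count in any liver, and for Podxl, which had counts in every liver. They were read from the GRCm39 genome at chr7:30158900-30159149 (plus strand) and chr6:31540925-31541174 (minus strand), and each is printed in the direction of its gene. Capitals mark a match to GCGNGGGNG, a letter pattern of the WT1 and EGR zinc finger family, searched on both strands.
Nphs1: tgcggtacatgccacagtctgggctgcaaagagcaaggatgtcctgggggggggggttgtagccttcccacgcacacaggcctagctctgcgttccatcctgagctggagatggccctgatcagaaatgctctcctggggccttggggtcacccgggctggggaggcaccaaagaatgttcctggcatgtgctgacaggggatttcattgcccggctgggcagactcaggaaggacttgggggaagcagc
Podxl: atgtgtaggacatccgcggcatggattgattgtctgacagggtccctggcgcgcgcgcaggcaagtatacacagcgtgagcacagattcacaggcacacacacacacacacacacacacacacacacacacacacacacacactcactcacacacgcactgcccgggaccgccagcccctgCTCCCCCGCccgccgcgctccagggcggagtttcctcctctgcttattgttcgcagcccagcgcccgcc
The Podxl window held 1 such match, read as GCGGGGGAG on the strand opposite to the gene, 69 to 61 bases before the start site. It overlapped a GC box (GGGCGG) on the same strand, 64 to 59 bases before the start, and another GC box stood on the gene's own strand 47 to 42 bases before the start. The Nphs1 window held neither pattern, and it lay inside the annotated span of the gene, which begins at 30157740. The windows of Synpo and Wt1, which also had counts in every liver, held 0 matches to the first pattern, but each held a GC box. The Ptpro window held neither pattern, although Ptpro had counts in all livers but 1. In the corresponding windows of 21648 annotated genes, 10.5% held the first pattern and 36.4% held a GC box, on either strand. The GC content was 61.2% for Nphs1 and 62.4% for Podxl, against a median of 53.2% over those windows. These matches describe letters only and carry no measurement of binding.

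The levels of the 5 genes separated kidney from liver in the vehicle-treated mice, and Nphs1 did so most completely. Levels are given as CPM, the counts of a gene per 1000000 counts of its library, with TMM factors over all 20 libraries, divided by the length of the canonical transcript in kilobases, so that genes can be compared. In vehicle kidney Podxl was at 21.6 ± 3.34 CPM per kb, Synpo at 5.31 ± 0.320, Nphs1 at 3.72 ± 0.583, Ptpro at 2.33 ± 0.180 and Wt1 at 1.62 ± 0.447 (mean ± SD, n = 4). Podxl was 4.06 times the level of Synpo and 13.3 times that of Wt1, and 9.13 and 25.2 times when all annotated exons were used as the length. Podxl was above Synpo, Synpo above Nphs1 and Nphs1 above Ptpro in 10 of 10 kidneys, and Ptpro above Wt1 in 9 of 10. The lengths also decided the order of Synpo and Nphs1: with all annotated exons, Nphs1 was at 2.59 ± 0.406 and Synpo at 2.31 ± 0.139 CPM per kb, which overlapped within their SD. The highest vehicle kidney for Wt1 was at 2.03 CPM per kb and the lowest for Ptpro at 2.18, whereas in 7c kidneys the ranges of these neighbours overlapped.

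In vehicle liver the order was different below Synpo. Podxl was at 2.14 ± 0.396 CPM per kb, Synpo at 0.824 ± 0.230, Wt1 at 0.416 ± 0.292, Ptpro at 0.142 ± 0.133 and Nphs1 at 0 (n = 4). The last 3 levels rested on few counts: Wt1 had 6 to 62 counts per liver over both treatments and Ptpro 0 to 44. Wt1 and Ptpro overlapped in liver and their order there was not resolved.

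**Figure D1:**
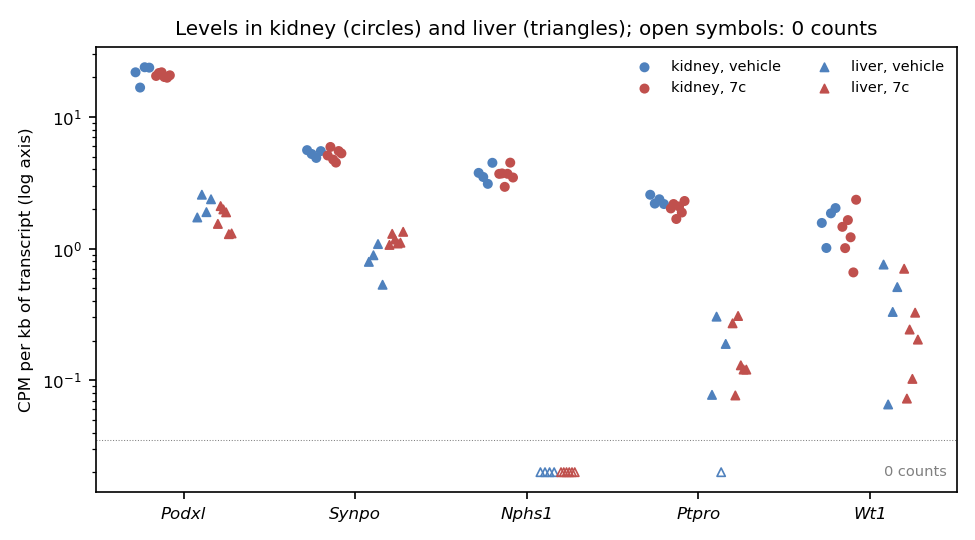
Level of each podocyte gene in every kidney (circles) and liver (triangles), in CPM per kb of canonical transcript on a log axis, with vehicle in blue and 7c in red. Podxl is the highest gene in every kidney, Nphs1 has 0 counts in all 10 livers (open symbols at the foot), and Wt1 shows the widest scatter among kidneys.

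Kidney and liver were compared in the 4 vehicle kidneys and 4 vehicle livers with edgeR's quasi-likelihood test, in which 53.4% of 17245 genes passed an adjusted p of 0.05 and 27.7% did so as higher in kidney. All 5 podocyte genes were higher in kidney, as was a large share of all genes. Nphs1 passed the filter on low counts only through the kidneys and so had to differ. Measured against a floor of 3 counts in the smallest vehicle liver library, its mean in vehicle kidney was at least 140-fold higher. The log2 difference was 4.02 (SE 0.689, adjusted p = 0.000489) for Ptpro and 3.33 (SE 0.184, adjusted p = 6.22e-08) for Podxl. It was 2.69 (SE 0.211, adjusted p = 1.09e-06) for Synpo. Wt1 had the smallest difference, 1.96 (SE 0.551, adjusted p = 0.0109), and its call was lost without vehicle replicate 3 (adjusted p = 0.0593) or replicate 4 (adjusted p = 0.0504). The tubular markers Slc34a1 and Umod were at 0 counts in every liver.

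The comparison of 7c with vehicle in kidney asked whether the podocyte transcripts differed after 28 days of infusion. No member passed the test: all 5 log2 fold changes lay between -0.22 and -0.027, and the treated and control kidneys overlapped for each gene. Across the 17749 genes tested in kidney, 0% passed an adjusted p of 0.05 in edgeR's quasi-likelihood test, 2.61% had an unadjusted p under 0.05, and 51% had a log2 fold change below 0. Leaving out vehicle replicate 2 raised the share with an unadjusted p under 0.05 to 10.3%. It was 4.39% when 7c replicate 3 was dropped and 4.32% when no filter on low counts was used. None of the 5 genes had an unadjusted p under 0.05, in any of these fits, and none was called by DESeq2 or limma-voom either. Below, kidney values are CPM with TMM factors from the 10 kidneys, not divided by length.

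Nphs1 was at 21.9, 20.2, 18.1 and 26.1 CPM in the 4 vehicle kidneys and ranged from 17.1 to 26.1 with a median of 21.2 in the 6 treated kidneys. The groups covered nearly the same range, and only 1 treated kidney fell below the vehicle range. The fold of 7c over vehicle was 0.981 (95% interval 0.796 to 1.21; edgeR adjusted p = 0.997).

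Podxl was at 148, 112, 162 and 160 CPM in vehicle kidneys and between 134 and 148, with a median of 139, in 7c kidneys. All 6 treated kidneys lay inside the vehicle range, which was wide because vehicle replicate 2 was low. The fold was 0.956 (95% interval 0.806 to 1.13; edgeR adjusted p = 0.997). Without vehicle replicate 2 the log2 fold change moved from -0.065 to -0.17, with an edgeR adjusted p of 0.490, and without replicate 3 or 4 it moved to -0.0098 or -0.016. Podxl rested on 4035 to 9068 counts per kidney, the most of the 5 genes.

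Synpo, the actin-associated member, was at 42.4, 39.2, 37.1 and 41.5 CPM in vehicle kidneys. In 7c kidneys it ranged from 33.4 to 43.8 CPM with a median of 39.1. Of the treated kidneys 2 were below and 1 above the vehicle range. The fold was 0.968 (95% interval 0.826 to 1.13; edgeR adjusted p = 0.997).

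Wt1, the transcription factor, was the most scattered member. It was at 6.59, 4.21, 7.81 and 8.52 CPM in vehicle kidneys and from 2.75 to 9.89 CPM, with a median of 5.55, in 7c kidneys. Both the lowest and the highest kidney of the study were treated ones, 7c replicates 5 and 6. The fold was 0.857 with a 95% interval of 0.537 to 1.37 (edgeR adjusted p = 0.997), the widest interval of the 5 genes. Its log2 fold change moved from -0.22 to -0.079 without 7c replicate 5 and to -0.44 without 7c replicate 6. Wt1 rested on 88 to 412 counts per kidney.

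Ptpro, the foot process phosphatase, was at 17.0, 14.4, 15.8 and 14.4 CPM in vehicle kidneys and from 11.1 to 15.3 CPM, with a median of 13.4, in 7c kidneys. In 5 of the 6 treated kidneys it was below the lowest vehicle kidney, and 7c replicate 6 lay inside the vehicle range. Non-overlap was seen in 0.716% of all genes tested in kidney, and Ptpro was not among them. Its fold was 0.862 (95% interval 0.717 to 1.04), with an unadjusted p of 0.105 and an adjusted p of 0.997 in edgeR's test.

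**Figure D2:**
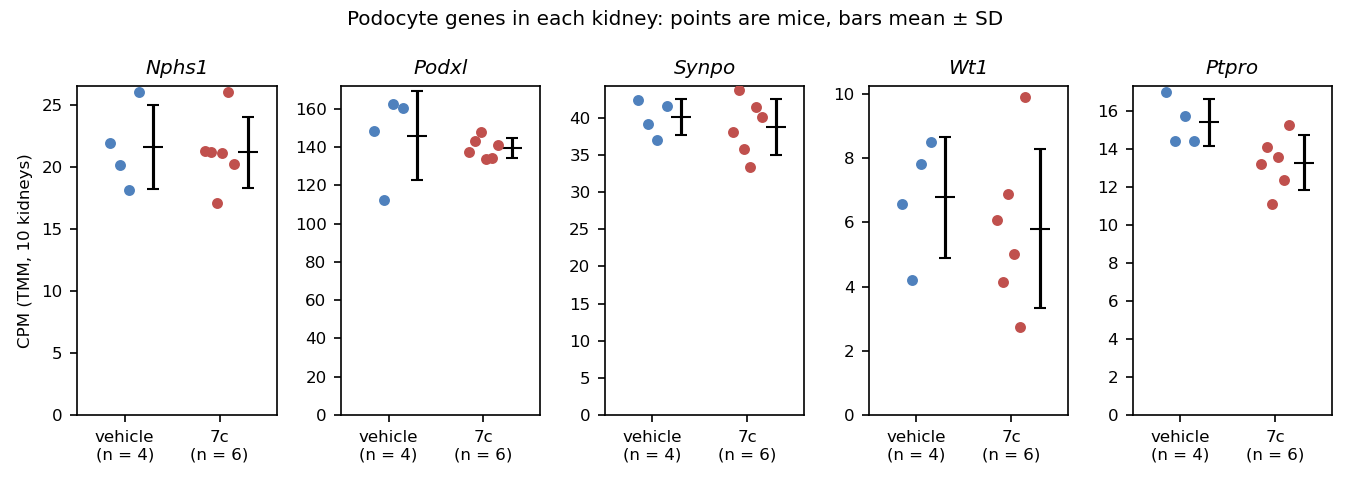
CPM of each podocyte gene in every kidney of vehicle-treated (blue, n = 4) and 7c-treated (red, n = 6) mice, with bars for mean ± SD and each axis starting at 0. The groups overlap in every panel; for Ptpro only 1 of 6 treated kidneys reaches the vehicle range.

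**Figure D3:**
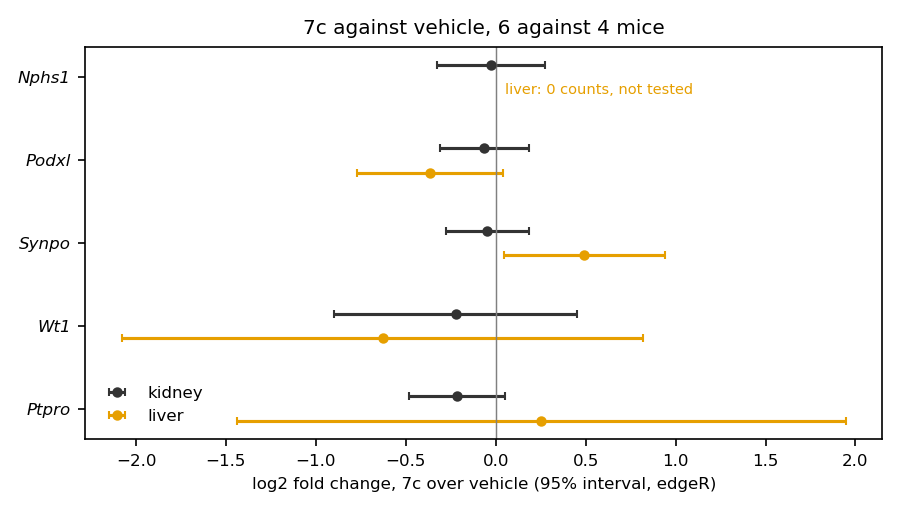
Log2 fold change of 7c over vehicle with a 95% interval derived from edgeR's quasi-likelihood test, for kidney (black) and liver (orange). All 5 kidney intervals cross 0; in liver only the interval of Synpo, 0.047 to 0.94, lies above 0, before adjustment over all genes.

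Scatter between kidneys differed among the members. Over the 10 kidneys the coefficient of variation was 8.19% for Synpo, 10.1% for Podxl, 12.0% for Ptpro and 13.6% for Nphs1. For Wt1 it was 35.6%, and the highest kidney had 3.59 times the CPM of the lowest. Wt1 also had the lowest counts, and how much of this scatter came from counting was not tested. The summed CPM of the 5 genes ran from 207 to 226 in 7c kidneys and from 190 to 251 in vehicle kidneys.

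Other genes of the podocyte were taken from 5 lists of 58 genes in all, of which 57 passed the kidney filter. None passed an adjusted p of 0.05 in edgeR's test, 1 had an unadjusted p under 0.05, and 36 had a log2 fold change below 0. Over all genes tested in kidney the corresponding shares were 0%, 2.61% and 51%. The median log2 fold change of the 57 was -0.055, against -0.0057 over all genes tested. Of the 14 slit diaphragm genes tested 11 were below 0 (median -0.095). Cd2ap, which links the slit diaphragm to actin, differed by -0.10 (SE 0.119) on the log2 scale, and Kirrel1, a nephrin-binding immunoglobulin protein, by -0.14 (SE 0.224).

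Among 13 foot process genes 7 were below 0. The actin crosslinker Actn4 differed by -0.085 (SE 0.159) and the motor Myo1e by -0.12 (SE 0.103) on the log2 scale. Inf2, a formin that shapes actin filaments, was the gene with an unadjusted p under 0.05: it was at 16.4 ± 4.40 CPM with 7c and 10.6 ± 1.66 with vehicle, a log2 fold change of 0.63 (SE 0.201, edgeR unadjusted p = 0.00833, adjusted p = 0.997). The treated kidneys ran from 11.4 to 23.8 CPM and overlapped the vehicle kidneys, which ran from 8.89 to 12.5.

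Of 7 podocyte transcription factors 2 were below 0. Lmx1b differed by 0.31 (SE 0.298) and Tcf21 by 0.048 (SE 0.227). Of 11 genes of the glomerular basement membrane and of adhesion to it 9 were below 0 (median -0.097), among them the collagen IV chains Col4a3 at -0.31 (SE 0.289), Col4a4 at -0.097 (SE 0.149) and Col4a5 at -0.37 (SE 0.293). The remaining list, of 12 podocyte-enriched genes, had 7 below 0, with Cdkn1c at 0.13 (SE 0.163), Thsd7a at -0.28 (SE 0.238) and Sema3g at -0.050 (SE 0.131).

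Markers of the other cells of the kidney were read beside the podocyte genes. Of the 6 markers of glomerular endothelium 2 were below 0 (median 0.0078), with Ehd3 at 0.012 (SE 0.108), and of the 6 mesangial and juxtaglomerular markers 2 were below 0 (median 0.042). All 6 pan-endothelial markers were above 0 (median 0.21), with Pecam1 at 0.14 (SE 0.125), and their summed CPM ran from 254 to 369 in 7c kidneys and from 247 to 339 in vehicle kidneys. None of the 6 had an unadjusted p under 0.05 in edgeR's test, and 51% of all genes tested in kidney were below 0. The proximal tubule median was -0.033, that of the thick limb and distal tubule 0.016 and that of the collecting duct 0.14. Other medians were 0.39 for the 4 mesothelial markers tested, -0.51 for 6 hepatocyte markers and -0.091 for 6 stellate cell markers, with no call in any of them. The 6 adipocyte markers had the highest list median, 2.13. Their summed CPM was 57.3 to 149 in 7c kidneys and 37.1 to 49.5 in vehicle kidneys, and all 6 had an unadjusted p under 0.05, as did 2.61% of all genes. None of them passed the edgeR quasi-likelihood test after adjustment (lowest adjusted p = 0.997). Cidec was called by DESeq2 (adjusted p = 0.00197) and by edgeR's likelihood ratio test (adjusted p = 0.0311), and no other marker was called by either. Whether this tissue makeup had a part in the podocyte values was not tested. Of 3 parietal epithelium markers Cldn1 differed by -0.67 (SE 0.288, edgeR unadjusted p = 0.0373), while Pax2 was at 0.13 (SE 0.122) and Pax8 at -0.018 (SE 0.111).

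**Figure D4:**
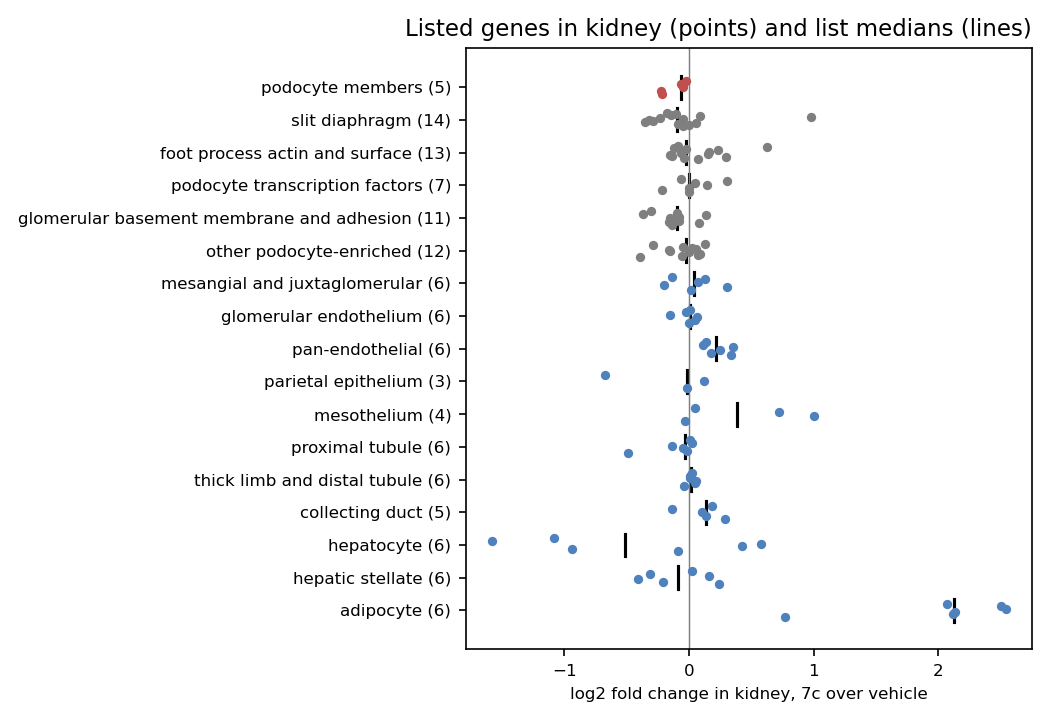
Log2 fold change of 7c over vehicle in kidney for the podocyte genes (red), other podocyte genes by list (grey) and markers of other cells (blue), with a black line at each list's median and the number of genes tested in brackets. The 5 podocyte genes sit between -0.22 and -0.027, while the adipocyte list has a median of 2.13.

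Liver served as the tissue without glomeruli. Nphs1 was not tested there, and the other 4 genes were tested among 15012, of which 0.00666% passed an adjusted p of 0.05 in edgeR's test and 3.76% had an unadjusted p under 0.05. None of the 4 was called, by edgeR, DESeq2 or limma-voom. Podxl and Wt1 had a log2 fold change below 0, as did 49.6% of all genes tested in liver. The groups overlapped for all 4, and they did not for 0.719% of all genes. Synpo had an unadjusted p under 0.05. It was at 3.86, 4.21, 5.37 and 2.63 CPM in vehicle livers and ranged from 5.01 to 6.43, with a median of 5.54, in 7c livers. Of the treated livers 3 were above the vehicle range and none below it. The fold was 1.41 (95% interval 1.03 to 1.92; edgeR unadjusted p = 0.0329, adjusted p = 1.00).

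Podxl was at 7.52, 10.9, 8.41 and 10.5 CPM in vehicle livers and ranged from 5.52 to 9.04, with a median of 7.28, in 7c livers. Its 3 lowest treated livers were below the vehicle range. The fold was 0.776 (95% interval 0.586 to 1.03; edgeR unadjusted p = 0.0734, adjusted p = 1.00). Wt1 ranged from 0.193 to 1.84 CPM in 7c livers and from 0.172 to 2.04 in vehicle livers, and Ptpro from 0.322 to 1.33 and from 0 to 1.26. Their 95% intervals, 0.237 to 1.77 for the Wt1 fold and 0.369 to 3.85 for the Ptpro fold, show that these counts set no narrow limit on a difference in liver.

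Whether the 7c effect differed between the tissues was tested as an interaction in 14163 genes, of which 0.00706% passed an adjusted p of 0.05 in edgeR's test and 2.49% had an unadjusted p under 0.05. None of the 4 podocyte genes tested passed it, with edgeR or DESeq2. For Synpo the kidney effect minus the liver effect was -0.53 on the log2 scale (SE 0.202, edgeR unadjusted p = 0.0158, adjusted p = 1.00). It was 0.31 (SE 0.203) for Podxl, 0.41 (SE 0.738) for Wt1 and -0.45 (SE 0.660) for Ptpro. Single replicates moved these values: without vehicle replicate 2 of both tissues it was 0.10 for Podxl and -1.17 for Ptpro, and without vehicle replicate 3 it was -0.028 for Ptpro. For Wt1 it ran from -0.049 without vehicle replicate 1 to 0.93 without 7c replicate 1.

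The members were then compared kidney by kidney to see whether they varied together. Pearson and Spearman correlations of log2 CPM over the 10 kidneys were tested by permutation for 45 pairs: the 10 pairs of members, and each member with 7 reference genes. No pair passed an adjusted p of 0.05 (permutation tests, n = 10), and 2 of 45 had an unadjusted Pearson p under 0.05. Of the 10 member pairs 7 had r above 0, and r ran from -0.34 for Nphs1 and Wt1 to 0.59 for Podxl and Wt1. Podxl and Wt1 had rho of 0.62 (permutation p = 0.0694 for r and 0.060 for rho, adjusted p = 0.62 and 0.679, n = 10). The r was 0.59 without the 2 kidneys farthest from the median of Podxl and 0.48 within the 6 treated kidneys. Nphs1 and Synpo had r of 0.53 and rho of 0.64 (permutation p = 0.112 and 0.054, adjusted p = 0.633 and 0.679), and r of 0.37 without the 2 kidneys farthest in Nphs1. For Nphs1 and Wt1, rho was -0.20 (permutation p = 0.326 for r and 0.583 for rho, adjusted p = 0.704 and 0.971), and r was -0.71 without the 2 kidneys farthest in Nphs1 and -0.74 within the 6 treated kidneys. Nphs1 and Podxl had r of -0.022 over the 10 kidneys, -0.26 without the 2 farthest and -0.80 within the 6 treated kidneys (unadjusted exact permutation p = 0.061, n = 6). The 4 vehicle kidneys were too few for a correlation of their own.

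Of the reference genes, 6 are described here. Ptpro with Umod, the uromodulin gene of the thick limb, had r of 0.64 and rho of 0.58 (permutation p = 0.041 and 0.088, adjusted p = 0.62 and 0.690, n = 10). The r was 0.54 without the 2 kidneys farthest from the Ptpro median and 0.89 within the 6 treated kidneys. With Aqp2, the collecting duct water channel, Podxl and Wt1 each had r of -0.61, whereas r was 0.44 for Nphs1, 0.25 for Synpo and 0.22 for Ptpro. For Podxl and Aqp2 rho was -0.78 (permutation p = 0.010, adjusted p = 0.463), and r was -0.69 without the 2 farthest kidneys. These pairs share libraries and the scaling of each library, and none passed adjustment in this setting. Ptpro and Umod passed for r once values were centred on the mean of each treatment group (permutation adjusted p = 0.0468), but not for rho (0.0675).

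**Figure D5:**
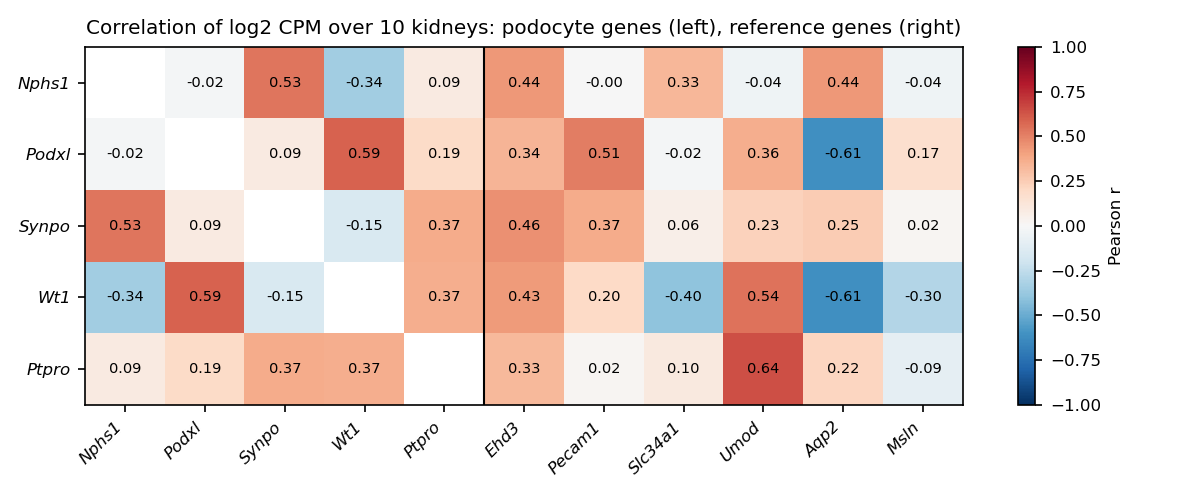
Pearson r of log2 CPM over 10 kidneys for the podocyte genes with each other (left of the line) and with 6 reference genes (right of the line). The highest value is 0.64, for Ptpro and Umod; among member pairs r runs from -0.34 to 0.59.

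Among 17744 other genes that passed the kidney filter, those most like the members were ranked by the mean of their 5 Pearson correlations with them, as a description over 10 kidneys. Genes among the leading 10 were Cenpp (mean r 0.540), Actmap (0.537), Sncaip (0.534), Gm6206 (0.517), B630019K06Rik (0.507), Cryaa (0.501), Magi2 (0.495), Ccdc122 (0.494) and Ptprq (0.49). Magi2, a scaffold protein of the slit diaphragm, was the only one from the podocyte lists. It had r of 0.73 with Podxl and 0.71 with Wt1, but 0.10 with Nphs1. Cenpp, Cryaa and Ptprq had means of under 1 CPM: 0.407, 0.854 and 0.252. By list, the median of this mean r was 0.273 for slit diaphragm genes, 0.248 for basement membrane genes, 0.165 for foot process genes, 0.157 for podocyte transcription factors and 0.118 for the other podocyte-enriched genes, beside 0.021 over all genes ranked. The thick limb list, at 0.217, was above the last 3 of these, the proximal tubule list was at 0.119 and the pan-endothelial list at -0.25.

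In liver the 4 detected members were set beside markers of cells that are present there, in 16 pairs chosen after the values were seen. None passed an adjusted p of 0.05 in permutation tests over the 10 livers (lowest adjusted p = 0.264). Podxl had r of 0.60 and rho of 0.68 with Pecam1, the endothelial adhesion molecule (permutation p = 0.070 and 0.035, adjusted p = 0.327 and 0.264), and r of 0.63 without the 2 farthest livers and 0.36 within the 6 treated livers. Podxl had r of 0.61 and rho of 0.65 with Reln (permutation p = 0.060 and 0.050, adjusted p = 0.327 and 0.264) and r of -0.59 and rho of -0.68 with Des (permutation p = 0.029 and 0.035, adjusted p = 0.327 and 0.264), both markers of stellate cells. The r was 0.32 with Reln and -0.67 with Des without the 2 farthest livers. Wt1 had r of 0.56 and rho of 0.43 with Msln, a mesothelial marker (permutation p = 0.082 and 0.220, adjusted p = 0.327 and 0.439), and r of 0.75 without the 2 farthest livers.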

How the data were processed

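Libraries were made with a stranded TruSeq mRNA kit. Per the labels and the study's methods, the authors mapped reads to GRCm39 with STAR (2.7.11b) and counted them with featureCounts (2.0.6). The deposited values are raw counts per gene. Annotation release and strand setting were not given in the sources used here. Of genes with 1 to 50 counts, 73.8 to 82.4% per library were even, so counts were also halved as an alternative chosen after seeing the data.

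As in the study, a gene was kept where 50% or more of a tissue's samples reached 10 counts. Kept genes were fitted with edgeR (4.0.16; TMM, quasi-likelihood F-test, Benjamini-Hochberg adjustment over all genes tested; R 4.3.3). Treatment was tested within each tissue (17749 genes in kidney, 15012 in liver), tissue in vehicle samples, and their interaction in all 20 libraries. Alternatives used DESeq2 (1.42.0), limma-voom (3.58.1), other size factors, a likelihood ratio test, no filter, a replicate block and each replicate left out. Fits were tested on simulated data.

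Correlations were computed on log2 CPM (prior count 2) and tested with 100000 permutations, 2-sided. Gene positions, lengths and promoters came from GENCODE on GRCm39; the promoter windows were read in the orientation of each gene. The lowest chi-square per gene between any 2 libraries of one tissue (90 pairs) was 23.2, far above sampling noise, and every library was counted as its own sample. P-values of the fits rest on the spread between these samples, and those of the correlations on permuted pairings of their values. Both tissues were collected from the dosed animals, so kidney and liver libraries can share a mouse. The labels name no animal, though the library names run in the same order of treatment and replicate in both tissues. The tissue and interaction tests treated all libraries as independent, with the replicate block as an alternative.

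The 5 genes and all lists were chosen with earlier results of these data known. Named genes were the 5 members, the leading 3 genes of each podocyte list, leading markers of other cells where they stand beside the members, any listed gene past an adjusted p of 0.05, the 10 genes most like the members and the 7 reference genes; a few of these are not reported here.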

Additional observations from a re-analysis of the deposited data

How the results depend on the processing

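No alternative changed how many of the 5 podocyte genes passed in either 7c comparison or in the interaction. In the comparison of tissues all 5 passed except without vehicle replicate 3 or 4, where Wt1 was lost and 4 passed. When the correlations were centred on the mean of each treatment group, 1 of 45 pairs passed: Ptpro and Umod (r of 0.87, permutation adjusted p = 0.0468, and rho of 0.88, permutation adjusted p = 0.0675). The permutation treated the 10 centred values as freely exchangeable, without allowing for the group means removed, so these p-values can be too small. With each replicate left out in turn, signs turned for these values, none of them past the threshold: the log2 fold change of Nphs1 in kidney (-0.10 to 0.076), of Ptpro in liver (-0.16 to 0.91) and of the Wt1 interaction (-0.049 to 0.93), and the r of Nphs1 with Podxl (-0.33 to 0.21), Wt1 (-0.68 to 0.037) and Ptpro (-0.47 to 0.37), of Podxl with Synpo (-0.043 to 0.23) and of Synpo with Wt1 (-0.33 to 0.0099). The lowest adjusted p of any podocyte gene in kidney was 0.490 (Podxl, without vehicle replicate 2) and in liver 0.641 (no filter).

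Counts over all genes depended on the tool. In kidney 0 genes passed with edgeR's quasi-likelihood test, 463 at an unadjusted p under 0.05, 18 with DESeq2, 14 with the likelihood ratio test, 2 with limma-voom, 2 with halved counts, 3 without the filter and 0 to 3 with a replicate left out. In liver 1 passed, against 6 with DESeq2, 7 with the likelihood ratio test, 4 without the filter and 0 to 2 with a replicate left out. In the interaction 1 passed, against 14 with DESeq2, 11 without the filter and 0 to 6 with a replicate left out.

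The labels do not say whether equal replicate numbers mark a shared animal or day. The library names run through treatments and replicate numbers in the same order in liver and kidney, so same-numbered libraries of a treatment may share a mouse. Correlations of deviations between same-numbered samples were -0.027 to 0.21 for 7c and vehicle kidneys and -0.046 to 0.034 for livers. Between kidney and liver they were 0.017 to 0.26 with 7c, where 4 of 6 kidneys correlated best with their own number, and 0.011 to 0.18 with vehicle, where 3 of 4 did. With the replicate number as a block, 0 podocyte genes passed in kidney, in liver and in the interaction and 5 between tissues, while counts over all genes were 0 in kidney, 0 in liver, 8744 between tissues (9215 without the block) and 0 in the interaction.

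In liver Wt1 rested on 6 to 62 counts per library and Ptpro on 0 to 44; how far counting error set the width of their intervals was not tested. Intervals cover the spread between libraries and not differences in the annotation or in strand.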
